A study of Bos taurus with 10 samples.

Results

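Adipogenic transcription factors are the DNA-binding proteins that commit precursor cells to fat and switch on lipid storage. The 10 genes described here are PPARG, CEBPB, CEBPD, KLF15, SREBF1, MLXIPL, EBF1, EBF2, ZNF423 and PRDM16, taken by name as regulators of white and beige fat. All 10 were among the 12674 genes of the deposited cattle table, and all 10 passed the filter on low counts, which left 12521 genes for testing. Adult female Angus-cross heifers, 5 in number, gave the tissue. From each came intramuscular fat, the marbling fat inside muscle, and subcutaneous fat from under the skin. The labels name no treatment or genotype, and each depot has 5 libraries, numbered 1 to 5, with the same number in both depots taken as the same heifer. The comparison of the depots bears on why marbling fat is laid down later and more slowly.

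In the textbook sequence of fat cell formation, C/EBPβ and C/EBPδ (CEBPB, CEBPD) are induced early and switch on PPARγ (PPARG), the nuclear receptor without which fat cells do not form, and KLF15 supports that step. EBF1, EBF2 and ZNF423 mark and commit the precursor cells, and SREBP-1 (SREBF1) and ChREBP (MLXIPL) drive fatty acid synthesis in response to insulin and sugar. PRDM16 steers cells toward brown and beige fat, which burns lipid for heat, and EBF2 acts with it there, while ZNF423 is known to hold that programme back in white fat cells.

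The libraries held 9392739 to 14836808 counts over the listed genes in intramuscular and 13776094 to 17685678 in subcutaneous fat. Levels are given as CPM, counts scaled to the library size with normalisation between libraries. Intramuscular libraries held more striated muscle transcripts. The 17 striated muscle markers with values, of 86 listed, took 0.462, 0.1197, 0.238, 0.0723 and 0.0811% of counts in intramuscular libraries 1 to 5, and 0.00475 to 0.00914% in subcutaneous libraries (exact permutation test, two-sided, pairing by heifer not used, p = 0.00794, which is as low as 5 unpaired libraries a depot can reach). Markers without values are not in this share, so it is not the whole muscle share of the libraries. Of 12 adipocyte markers 11 had values, and by log2 fold change 9 lay lower and 2 higher in intramuscular fat. FABP4, the fatty acid binding protein of fat cells, measured 2496 ± 743 CPM in intramuscular and 5952 ± 1874 CPM in subcutaneous fat (SD, n = 5). ADIPOQ, adiponectin, went the other way at 743 ± 322 against 649 ± 295 CPM, with overlap. The summed level of the 11 markers ran from 5084 to 17153 CPM within muscle and from 19166 to 25648 CPM under the skin, and intramuscular library 1 was the lowest. In bulk tissue, fewer cells of a type and less RNA per cell cannot be told apart.

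PRDM16 was the member that differed most between the depots, and it was about 9-fold higher in intramuscular fat. PPARG and MLXIPL lay lower there in all 5 heifers and EBF2 higher, but none of these 3 passed the main test. The share of all genes with the same direction in all 5 heifers is not given here. CEBPB, CEBPD, SREBF1, MLXIPL, KLF15, EBF1 and ZNF423 overlapped between the depots. By edgeR's quasi-likelihood test, at a Benjamini-Hochberg adjusted p of 0.05 over all genes, 1 of the 10 was higher (6.75% of all genes tested were) and 0 were lower (5.49% of all genes). At an unadjusted p of 0.05 the same test gave 2 higher and 1 lower, beside 14.5% and 16.2% of all genes. After adjustment DESeq2 called 2 higher and 1 lower (10.8% and 9.24% of all genes), and limma voom 1 higher and 0 lower (7.37% and 4.74%). The median log2 fold change of the 10, intramuscular over subcutaneous, was -0.12, beside -0.04 over all genes tested, with 5 positive and 5 negative.

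**Figure D1:**
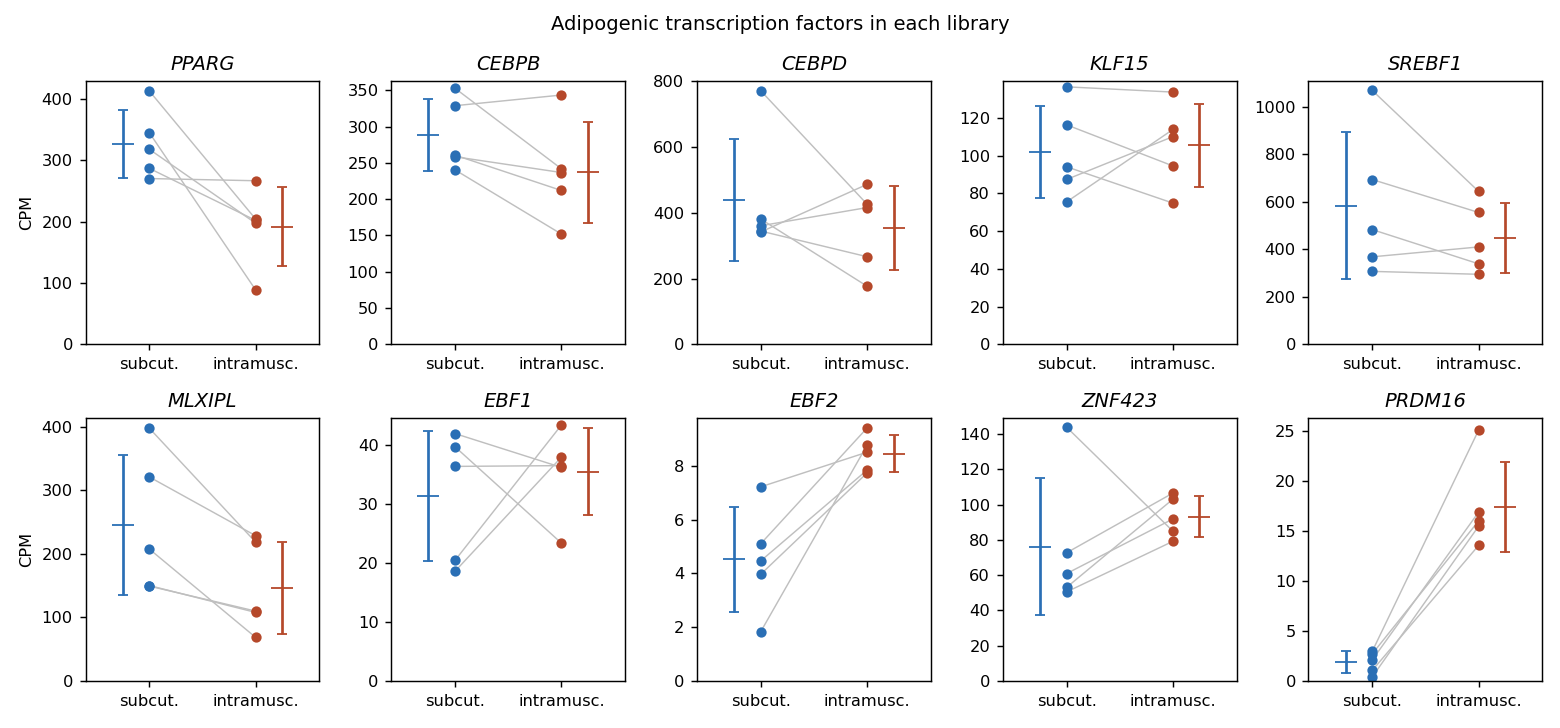
CPM of each factor (y axis) in the 5 subcutaneous (blue) and 5 intramuscular (red) libraries, with grey lines joining libraries of the same number and bars at the side giving mean ± SD. PRDM16, EBF2 and PPARG do not overlap between depots, and PRDM16 rises from 0.408 to 2.97 CPM in subcutaneous to 13.6 to 25.1 CPM in intramuscular libraries.

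PRDM16 (ENSBTAG00000018965, chromosome 16, 49578396 to 49632261, minus strand, in the table's coordinates) encodes the zinc finger regulator of brown and beige fat identity. It measured 25.1, 16.0, 16.9, 13.6 and 15.5 CPM in intramuscular libraries 1 to 5 and 2.97, 2.71, 2.11, 1.06 and 0.408 CPM in the subcutaneous ones. Each intramuscular library was at least 4 times as high as any subcutaneous library, and the 2 groups of values lay far apart. The log2 fold change was 3.23 ± 0.43 (SE), or 9.37-fold, with an edgeR adjusted p of 0.000671, and PRDM16 was higher in 5 of 5 pairs. It ranked 95 by p and 163 by fold change among the 12521 genes tested.

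The subcutaneous level of PRDM16 rests on few counts, 46, 37, 34, 18 and 6, against 268, 218, 231, 200 and 229 in intramuscular libraries 1 to 5. Within the intramuscular depot its order over the libraries was that of the striated muscle share, library 1 highest, then 3, 2, 5 and 4. Without intramuscular libraries 1 and 3, those richest in muscle transcripts, PRDM16 measured 15.0 ± 1.29 CPM (SD, n = 3), and the log2 fold change was 3.02 with an edgeR adjusted p of 0.00817. The 3 libraries left still had muscle marker shares of 0.0723 to 0.1197%, against at most 0.00914% in subcutaneous libraries. The part of muscle transcripts in the PRDM16 level was not tested. In all 10 fits that left out 1 library it kept its call, with log2 fold changes of 2.97 to 3.47.

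EBF2 (ENSBTAG00000040390, chromosome 8, 73140518 to 73360380, minus strand), a marker of brown and beige precursor cells, had a higher value in the intramuscular library of every heifer, by 0.23, 0.79, 0.94, 0.86 and 2.18 in log2 CPM. It measured 8.52, 7.86, 7.75, 9.42 and 8.79 CPM in intramuscular and 7.23, 4.47, 3.97, 5.11 and 1.84 CPM in subcutaneous libraries 1 to 5. The depots did not overlap, though intramuscular library 3 and subcutaneous library 1 lay close together. The log2 fold change was 0.90 ± 0.32 (SE) and the edgeR adjusted p 0.0831. EBF2 passed without subcutaneous library 1 (adjusted p = 0.0352) and by DESeq2 (0.0317). The authors' deposited values, an adjusted p of 0.0319 and a log2 fold change of 0.92, come from DESeq2 on the same counts. They are therefore not a second test.

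The spread of EBF2 differed between the depots as well, with a coefficient of variation of 8.16% in intramuscular and 43.1% in subcutaneous fat (n = 5 each, difference not tested). Raw counts were 91 to 139 and 27 to 112.

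ZNF423 (ENSBTAG00000017397, chromosome 18, 17963193 to 18309039, minus strand), a zinc finger protein of committed preadipocytes, measured 84.9, 106.5, 79.2, 91.8 and 103 CPM in intramuscular libraries 1 to 5. In subcutaneous libraries it measured 143.9, 72.6, 50.5, 60.9 and 53.0 CPM. Subcutaneous library 1 lay above all intramuscular libraries and the other 4 subcutaneous libraries below them. Its log2 fold change was 0.29 ± 0.26 (SE; edgeR adjusted p = 0.484), and without subcutaneous library 1 it was 0.65 with an adjusted p of 0.0229. Its coefficient of variation was 12.5% in intramuscular and 51.0% in subcutaneous fat. The same subcutaneous library was thus the highest of its depot for ZNF423, EBF2 and PRDM16. Its progenitor marker sum was also the highest of the depot (20181 CPM over 14 genes, range 9420 to 20181 in subcutaneous and 10743 to 11908 in intramuscular libraries). That sum was carried by the collagens COL3A1 (9173 CPM) and COL1A1 (5468 CPM), and subcutaneous library 5 came close at 19456 CPM. PDGFRA, another of the markers, was highest in subcutaneous library 4 (107 CPM, against 87.0 CPM in library 1). Of these 14 progenitor markers 0 were called higher and 4 lower in intramuscular fat, CLEC3B, CD248, CD34 and THY1, and their median was -0.65 on the log2 scale. Among all genes tested 6.75% were called higher and 5.49% lower, at a median of -0.04. The part of the progenitor markers in the result was not tested.

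EBF1 (ENSBTAG00000037508, chromosome 7, 70286630 to 70694473, minus strand), which acts in precursors and upstream of PPARG, did not separate the depots. It measured 23.4, 36.6, 38.0, 36.3 and 43.5 CPM in intramuscular and 39.8, 36.4, 18.6, 42.0 and 20.5 CPM in subcutaneous libraries 1 to 5. The pairs went both ways, with 3 higher and 2 lower in intramuscular fat. Its log2 fold change was 0.18 ± 0.25 (SE; edgeR adjusted p = 0.674). Its paralogue EBF3 measured 40.1 ± 4.64 against 44.4 ± 16.2 CPM (SD, n = 5; edgeR adjusted p = 0.718). EBF2 therefore had the only non-overlapping depots among the EBF genes with values. The ratio of EBF2 to EBF1 CPM within a library ranged from 0.202 to 0.364 in intramuscular libraries and from 0.0897 to 0.213 in subcutaneous ones, which overlap.

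PPARG (ENSBTAG00000001333, chromosome 22, 56709248 to 56835386, minus strand) measured 88.5, 197, 204, 266.5 and 202 CPM in intramuscular libraries 1 to 5. In subcutaneous libraries it measured 345, 318, 413, 270.1 and 287 CPM. All intramuscular values were the lower, but intramuscular library 4 lay only just under subcutaneous library 4, and library 1 stood well below the rest. By pair, the intramuscular minus subcutaneous difference in log2 CPM was -1.96, -0.69, -1.02, -0.02 and -0.51.

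The fitted log2 fold change of PPARG was -0.77 ± 0.25 (SE), with an edgeR adjusted p of 0.0589. It passed without intramuscular library 4 (adjusted p = 0.0400) and by DESeq2 (0.0209). The authors' deposited adjusted p of 0.0209 comes from DESeq2 on the same counts and is not a second test. Without intramuscular libraries 1 and 3 the log2 fold change was -0.56 (adjusted p = 0.168). Of the 10 members 2 lay without overlap above (7.85% of all genes tested did) and 1 below (5.04%). Against the 2 members called higher and 1 called lower in the authors' deposited table stand 10.8% and 9.24% of all its genes.

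CEBPB (ENSBTAG00000051972, chromosome 13, 78205757 to 78206803) and CEBPD (ENSBTAG00000046307, chromosome 14, 19128179 to 19129773), both on the plus strand, are the early C/EBP factors. CEBPB measured 211.8, 343, 237, 152 and 242 CPM in intramuscular and 261, 329, 258, 240.2 and 353 CPM in subcutaneous libraries 1 to 5. CEBPD measured 176, 487, 266, 416 and 426 CPM against 381, 342, 344, 361 and 771 CPM. For both genes the depots overlapped widely, and subcutaneous library 5 was the highest of its depot. The fold change of CEBPB was -0.28 ± 0.21 and that of CEBPD -0.31 ± 0.31 on the log2 scale (SE), and the edgeR adjusted p were 0.389 and 0.517. That of CEBPD was 0.00 without intramuscular libraries 1 and 3.

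KLF15 (ENSBTAG00000008313, chromosome 22, 60612131 to 60624486, plus strand), a Krüppel-like factor that responds to glucocorticoids and fasting, had nearly equal means in the depots. It measured 74.9, 114, 110.1, 134 and 94.6 CPM in intramuscular and 94.2, 75.5, 87.4, 137 and 116 CPM in subcutaneous libraries 1 to 5. Library 4 was the highest of each depot. Its log2 fold change was 0.05 ± 0.20 (SE; edgeR adjusted p = 0.895), and its sign turned with 1 library left out (-0.05 to 0.18).

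**Figure D2:**
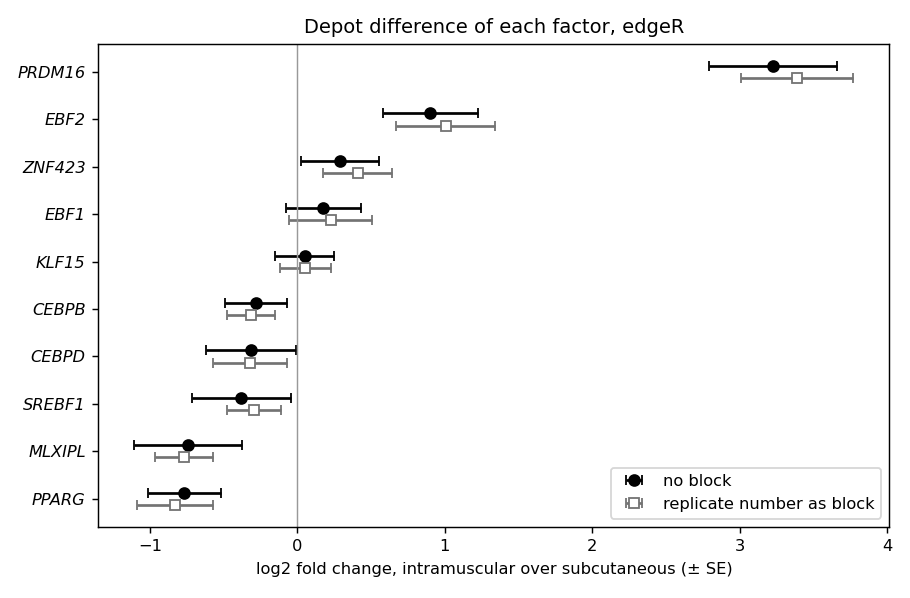
Log2 fold change of each factor, intramuscular over subcutaneous, with its SE (x axis), by edgeR without a block (black) and with the replicate number as a block (open squares). PRDM16 stands apart at 3.23, EBF2 at 0.90 is next, and MLXIPL and PPARG lie lowest at -0.74 and -0.77.

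For the lipogenic pair SREBF1 and MLXIPL, the libraries of heifers 4 and 5 were the highest in both depots. SREBF1 (ENSBTAG00000007884, chromosome 19, 34633133 to 34649213, plus strand) measured 339, 295, 409.8, 644 and 555 CPM in intramuscular libraries 1 to 5. In subcutaneous libraries 1 to 5 it measured 483, 307, 368, 1069 and 694 CPM. The depots overlapped, at a log2 fold change of -0.38 ± 0.34 (SE; edgeR adjusted p = 0.465). MLXIPL (ENSBTAG00000009153, chromosome 25, 33613971 to 33632441, plus strand) measured 68.4, 107.7, 109.8, 228 and 218 CPM in intramuscular and 207, 150.0, 149, 321 and 397 CPM in subcutaneous libraries.

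MLXIPL was lower in the intramuscular library of every heifer, with differences in log2 CPM of -1.60, -0.48, -0.44, -0.49 and -0.86. MLXIPL values overlapped between the depots all the same. Without a block its log2 fold change was -0.74 ± 0.36 (SE; edgeR adjusted p = 0.187). With the replicate number as a block it was -0.77 ± 0.20 (adjusted p = 0.0320), and MLXIPL was then the 1 member called lower (6.96% of all genes were) beside PRDM16 as the 1 called higher (8.09%). PPARG and EBF2 had adjusted p of 0.0592 and 0.0737 in this paired fit. Without heifers 1 and 3 the paired log2 fold change of MLXIPL was -0.62 ± 0.20 (SE; adjusted p = 0.119), and without intramuscular libraries 1 and 3 the unpaired one was -0.42 (adjusted p = 0.569).

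The term for the heifer in the paired fit had an unadjusted p of 0.00332 for SREBF1 and 0.00324 for MLXIPL. After Benjamini-Hochberg adjustment over all genes neither passed (adjusted p = 0.271 and 0.269). None of the 10 members passed for the heifer term, by which 0.136% of all genes were called. The pattern over heifers was noticed before this term was fitted.

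**Figure D3:**
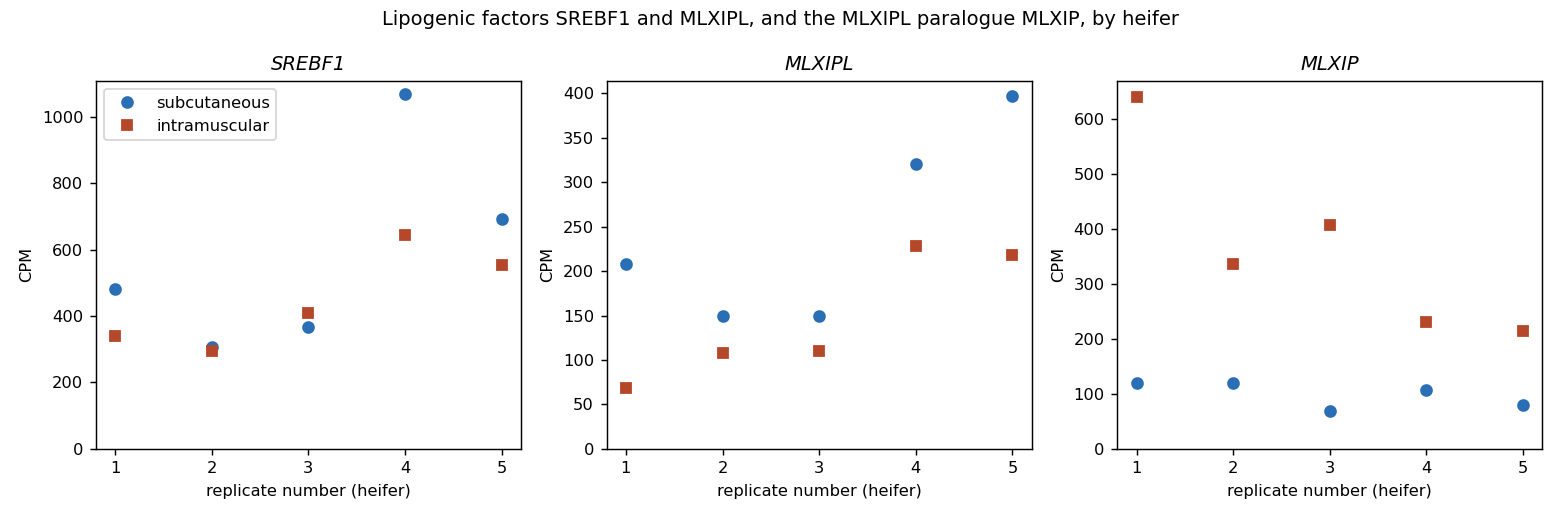
CPM (y axis) of SREBF1, MLXIPL and the MLXIPL paralogue MLXIP by replicate number, taken as the heifer (x axis), in subcutaneous (blue circles) and intramuscular fat (red squares). SREBF1 and MLXIPL are highest in heifers 4 and 5 in both depots, and MLXIP is higher in intramuscular fat in every heifer.

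MLXIP encodes MondoA, the paralogue of ChREBP that also binds MLX and senses sugar phosphates, and it is best known from skeletal muscle. Among 29 tested genes of a list of other adipogenic factors it was the 1 called higher. MLXIP measured 641, 336, 407, 230.0 and 215 CPM in intramuscular and 119.5, 119.2, 68.0, 106 and 80.5 CPM in subcutaneous libraries 1 to 5. The depots did not overlap, and within intramuscular fat library 1 was the highest and library 3 next, as for the striated muscle share. The log2 fold change was 1.89 ± 0.30 (SE; edgeR adjusted p = 0.00185), and the adjusted p without intramuscular libraries 1 and 3 was 0.00862. The part of muscle transcripts in the MLXIP level was not tested. MLX, the shared partner, measured 105 ± 13.8 against 107 ± 17.4 CPM (SD, n = 5).

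The ratio of MLXIPL to MLXIP CPM was 0.107, 0.320, 0.270, 0.993 and 1.01 in intramuscular libraries 1 to 5. It was 1.74, 1.26, 2.19, 3.02 and 4.94 in the subcutaneous libraries, so the depots did not overlap. In the list of other adipogenic factors 2 genes were lower, NR1H3, the liver X receptor α that induces SREBF1, and USF1, a helix-loop-helix factor of lipogenic promoters. NR1H3 measured 65.6 ± 14.0 against 112 ± 29.9 CPM and USF1 45.1 ± 6.45 against 70.0 ± 17.7 CPM (SD, n = 5; edgeR adjusted p = 0.0303 and 0.0435). NR1H3 kept its call in 5 and USF1 in 2 of the 10 fits with 1 library left out, and neither passed without intramuscular libraries 1 and 3 (adjusted p = 0.173 and 0.139). The list's median log2 fold change was -0.02, beside -0.04 over all genes tested, of which 6.75% were called higher and 5.49% lower.

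Per length, the members spanned a wide range of levels in the same order in most places. In subcutaneous fat CEBPD and CEBPB stood highest at 276 ± 117 and 275 ± 47.2 CPM per kilobase of the length the table gives (SD, n = 5), and did not differ beyond their spread. SREBF1 followed at 136 ± 71.7, MLXIPL at 75.6 ± 34.0, PPARG at 69.1 ± 11.9 and KLF15 at 38.7 ± 9.25 CPM per kilobase. EBF1 and ZNF423 lay at 17.7 ± 6.23 and 14.4 ± 7.37, EBF2 at 1.26 ± 0.541 and PRDM16 lowest at 0.534 ± 0.315 CPM per kilobase. Neighbours from SREBF1 to PPARG, and EBF1 and ZNF423, were within their spread of each other.

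In intramuscular fat CEBPB and CEBPD again led, at 226 ± 66.2 and 222 ± 80.4 CPM per kilobase, before SREBF1 at 104 ± 34.2. MLXIPL, PPARG and KLF15 could not be ordered, at 45.2 ± 22.3, 40.5 ± 13.6 and 40.0 ± 8.37 CPM per kilobase. EBF1 at 20.0 ± 4.15 and ZNF423 at 17.7 ± 2.21 followed. PRDM16 at 5.02 ± 1.29 now stood above EBF2 at 2.35 ± 0.192 CPM per kilobase. Even there PRDM16 was well below PPARG per length.

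**Figure D4:**
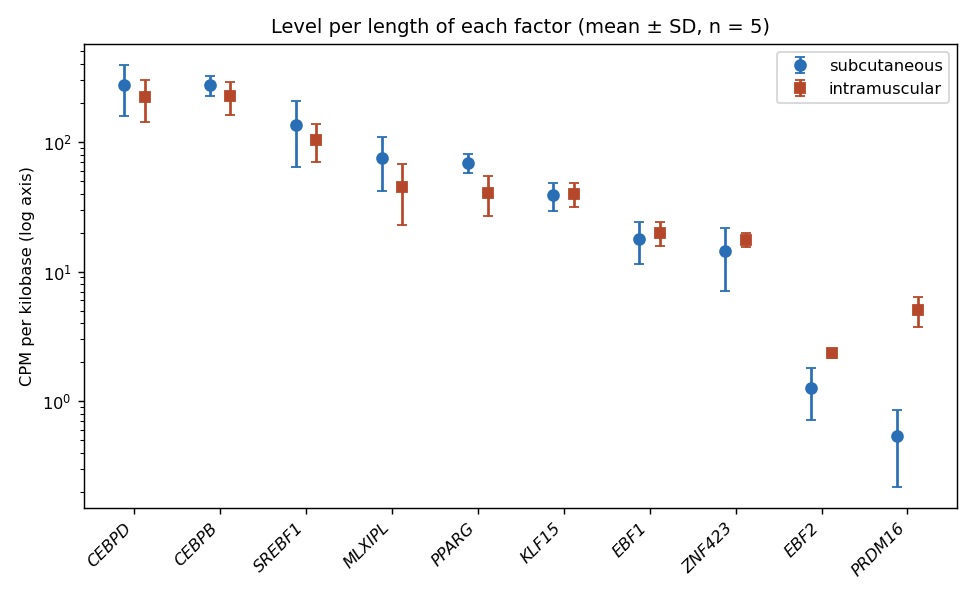
CPM per kilobase of each factor on a log axis (mean ± SD, n = 5) in subcutaneous (blue circles) and intramuscular fat (red squares), ordered by the subcutaneous level. PRDM16 moves from 0.534 to 5.02 CPM per kilobase and passes EBF2.

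The members were also set against the level of adipocyte markers. For each library the mean log2 CPM of the 11 adipocyte markers was subtracted from the log2 CPM of each factor. PPARG then differed by -0.11 between the depots (SD 0.25 in intramuscular and 0.31 in subcutaneous fat, n = 5), and MLXIPL by -0.05 (SD 0.32 and 0.57). Both differences were smaller than the spread between libraries, whereas the CPM of PPARG did not overlap. Of the 11 markers 8 are themselves in the list of PPARG targets, so for PPARG part of this is built into the scale. The other 3 are LEP, ADIPOR2 and TMEM120B. In intramuscular library 1 TMEM120B was at its highest (24.1 CPM), whereas LEP and ADIPOR2 were at their lowest (117 and 135 CPM). With these 3 markers alone PPARG differed by -0.38 (SD 0.37 and 0.39) and MLXIPL by -0.32 (SD 0.23 and 0.57). CEBPB, CEBPD and SREBF1 differed by 0.41, 0.40 and 0.43 on the scale of all 11 markers. With the other 3 alone they differed by 0.14, 0.13 and 0.16. Their values overlapped on both scales.

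On the scale of all 11 markers PRDM16 differed by 4.09, EBF2 by 1.73, ZNF423 by 1.13, EBF1 by 0.96 and KLF15 by 0.78, all toward intramuscular fat. PRDM16, EBF2 and EBF1 did not overlap between the depots, with EBF1 at -4.21 to -3.50 in intramuscular and -5.57 to -4.31 in subcutaneous libraries. With the other 3 markers alone PRDM16 and EBF2 still did not overlap, at differences of 3.82 and 1.46, whereas EBF1 overlapped at 0.68. ZNF423 and KLF15 overlapped on both scales. The 11 adipocyte markers themselves had a median log2 fold change of -0.81 (0 higher, 2 lower), so their scale moves every gene toward intramuscular fat. The shares over all genes tested were 6.75% higher and 5.49% lower.

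Genes linked to brown and beige fat were mixed. In a list of brown and beige fat genes, 22 of 34 were tested, 5 were higher and 0 lower, and the median was 0.47 on the log2 scale. Among all genes tested 6.75% were higher and 5.49% lower, at a median of -0.04. UCP1, DIO2 and ELOVL3 had no values and were not analysed here. Higher were CKMT2, the mitochondrial creatine kinase of striated muscle, COX7A1 (48.3 ± 27.3 against 18.9 ± 5.08 CPM) and COX8B, cytochrome oxidase subunits of muscle and brown fat, the T-box gene TBX1, and PPARGC1A, a coactivator of mitochondrial genes. CKMT2 measured 313 ± 260 against 0.774 ± 0.547 CPM (SD, n = 5), highest in intramuscular library 1 at 738 CPM.

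TBX1 measured 7.76 ± 3.78 against 0.893 ± 0.868 CPM and PPARGC1A 6.96 ± 1.68 against 3.26 ± 1.17 CPM (SD, n = 5; edgeR adjusted p = 0.0204 and 0.0498). PPARGC1A kept its call in 1 of the 10 fits with a library left out and COX8B in 5, while TBX1 lost it without intramuscular library 1 (adjusted p = 0.0517). The number higher was 2 to 7 in these fits. It was 1, CKMT2, without intramuscular libraries 1 and 3, where 306 of all genes were called higher against 845 in the main test. CIDEA, a lipid droplet protein of brown and white fat, measured 366 ± 227 against 927 ± 856 CPM (edgeR adjusted p = 0.122). EHMT1, the methyltransferase that PRDM16 recruits, measured 117 ± 13.7 against 122 ± 25.6 CPM (edgeR adjusted p = 0.832).

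**Figure D5:**
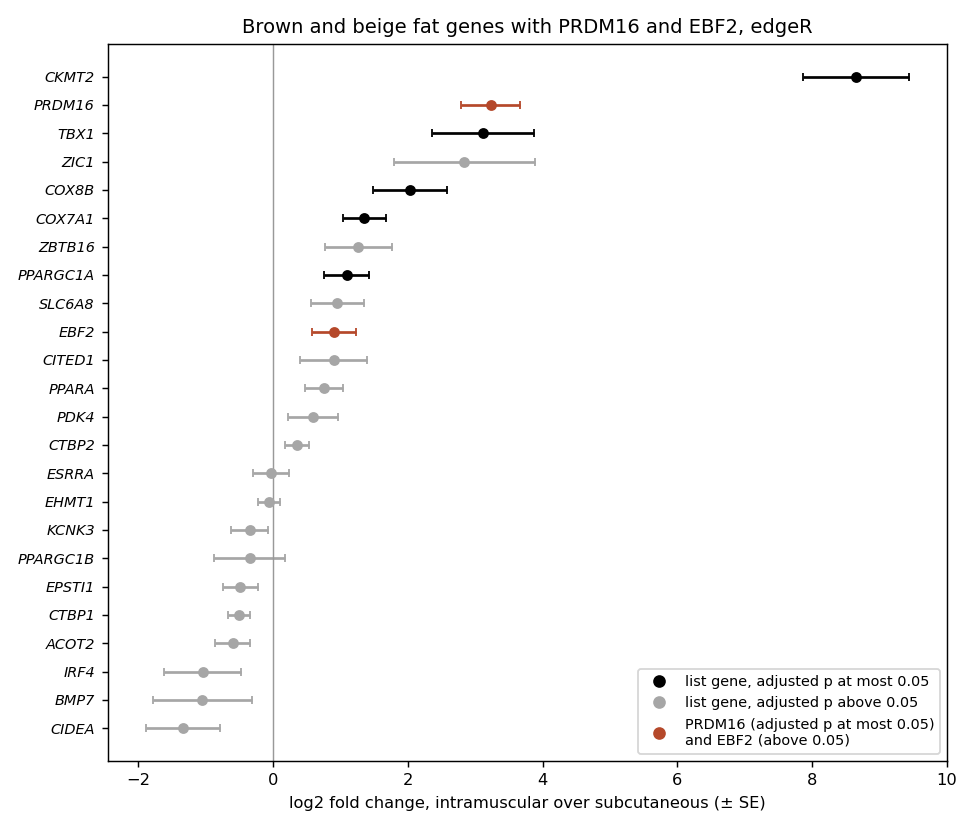
Log2 fold change, intramuscular over subcutaneous, with SE (x axis) for the 22 tested brown and beige fat genes and for PRDM16 and EBF2 (red). Black points pass an adjusted p of 0.05, grey ones do not. CKMT2 at 8.65 exceeds PRDM16, and the median of the 22 list genes is 0.47.

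Among 19 tested coregulators of PPARG, PRDM16 included, 2 (PRDM16 and PPARGC1A) were higher and 1 lower, and the median was 0.39 on the log2 scale. The partner receptor RXRA measured 428 ± 31.6 against 652 ± 160.5 CPM (SD, n = 5; edgeR adjusted p = 0.0534). CITED2, a coactivator of nuclear receptors, measured 235 ± 65.2 against 379 ± 56.0 CPM (adjusted p = 0.0497), which held in 1 of the 10 fits with a library left out. TRIP12, a ubiquitin ligase, measured 137 ± 9.45 against 104 ± 3.86 CPM (adjusted p = 0.0524). Of 25 tested PPARG target genes 1 was higher and 6 lower, with a median of -0.66, and 20 had a negative fold change. For comparison with both lists, 6.75% of all genes tested were higher and 5.49% lower, at a median of -0.04. Lower were CFD, MGLL, FABP5, FABP4, ANGPTL4 and DGAT1, and higher was SLC27A1, a fatty acid transport protein also made in muscle (71.7 ± 36.8 against 30.4 ± 6.10 CPM, SD, n = 5). None of the 25 was called without intramuscular libraries 1 and 3, where 306 of all genes were higher and 67 lower, against 845 and 688 in the main test. With the replicate block 1 of the 25 was higher and 10 were lower, beside 8.09% and 6.96% of all genes. CFD, MGLL, FABP5, FABP4 and SLC27A1 kept their calls in all 10 fits with a library left out. ANGPTL4, an inhibitor of lipoprotein lipase, measured 50.7 ± 35.4 against 174 ± 93.2 CPM (adjusted p = 0.0284, kept in 4 of the 10 fits). DGAT1, which makes triglyceride, measured 76.2 ± 7.69 against 113 ± 26.2 CPM (edgeR adjusted p = 0.0461). It kept its call in 1 of the 10 fits and lost it with the replicate block and by limma voom (adjusted p = 0.0512 for each).

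For SREBF1 and MLXIPL, 27 target genes were tested, and 0 were higher and 1, the pentose phosphate enzyme PGD, lower by edgeR (adjusted p = 0.0479, kept in 2 of the 10 fits with a library left out), at a median of -0.54 on the log2 scale. The same edgeR test called 6.75% of all genes higher and 5.49% lower. By DESeq2 1 of the 27 was higher and 6 were lower (10.8% and 9.24% of all genes), and with the replicate block 1 and 8 (8.09% and 6.96%). Of the other list genes of smallest p, ARRDC4, an arrestin-like ChREBP target, measured 56.5 ± 11.7 against 37.2 ± 7.91 CPM (SD, n = 5; edgeR adjusted p = 0.0576). The pentose phosphate enzyme TKT measured 1410.2 ± 572 against 2708 ± 781 CPM (adjusted p = 0.0609) and ME1, malic enzyme, 201 ± 86.8 against 435 ± 230.0 CPM (adjusted p = 0.0772). With the replicate block all 3 passed (adjusted p = 0.0408, 0.0257 and 0.0349). In the SREBP processing list of 10 tested genes, FBXW7, the ubiquitin ligase subunit that marks nuclear SREBP for destruction, was the 1 called. It measured 15.6 ± 1.51 against 8.20 ± 2.73 CPM (SD, n = 5; edgeR adjusted p = 0.0356, kept in 3 of the 10 fits). SCAP, the escort protein of SREBP, measured 250 ± 78.0 against 365 ± 120 CPM (adjusted p = 0.201). MBTPS1, the site-1 protease that cuts SREBP, measured 125 ± 9.65 against 150 ± 18.6 CPM and RNF139, a ubiquitin ligase, 29.7 ± 3.19 against 24.0 ± 4.52 CPM (adjusted p = 0.215 and 0.247).

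Of 31 tested inhibitors of adipogenesis 2 were higher and 1 lower, and the median was 0.07 on the log2 scale. The shares over all genes tested were 6.75% higher and 5.49% lower, at a median of -0.04. HDAC9, a deacetylase that restrains CEBPA, measured 9.09 ± 2.61 against 1.88 ± 1.36 CPM (SD, n = 5; edgeR adjusted p = 0.0158), and kept its call in all 10 fits with a library left out. WWTR1, the coactivator TAZ that represses PPARγ, measured 25.6 ± 6.16 against 10.0 ± 4.33 CPM (adjusted p = 0.0232). It lost its call without intramuscular library 3 (adjusted p = 0.0669) and without subcutaneous library 3. TWIST2 measured 20.0 ± 9.70 against 44.5 ± 15.8 CPM (adjusted p = 0.0411, kept in 5 of the 10 fits). SIRT1, a deacetylase that restrains PPARγ, measured 39.5 ± 4.33 against 27.1 ± 5.602 CPM (adjusted p = 0.0588). None of the 31 was called without intramuscular libraries 1 and 3 (adjusted p of HDAC9 = 0.114 and of WWTR1 = 0.155). Over all genes that fit called 306 higher and 67 lower, against 845 and 688 in the main test.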

How the data were processed

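Total RNA of fat from 2 depots was sequenced from random-primed, dUTP-marked libraries, per the labels' protocols. The authors deposited raw counts per gene and library, with their own log2 fold change and adjusted p-value in the same table. The submitters' processing notes name the aligner STAR 2.7.11a, the read trimmer Trimmomatic 0.39, the counter featureCounts 2.0.2 and the test DESeq2 1.42.0. Build and strand setting: not given in the sources used here. Whether reads of overlapping genes on opposite strands were counted apart is therefore unknown, and coordinates and gene lengths (for CPM per kilobase) are those the authors deposited. Libraries were grouped by title. Numbers were taken as pairs, because the series text has 5 heifers give both depots. After subtracting depot means, libraries sharing a number correlated at 0.102 to 0.237 across genes, and for 10 of 10 the best match was the library with their number.

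The counts were tested in R 4.3.3 with edgeR 4.0.16 (two-sided quasi-likelihood test, TMM scaling, filterByExpr, no block, Benjamini-Hochberg adjustment over 12521 genes, threshold 0.05). The filter removed 153 genes. The SE is the fold change over the square root of F. Log2 CPM used a prior count of 2. Alternatives were DESeq2 size factors, no filter, DESeq2 1.42.0, limma 3.58.1 voom, a replicate block, each library left out, intramuscular libraries 1 and 3 left out, and heifers 1 and 3 left out of the paired fit. On simulated counts for this comparison (12391 genes, 199 changed), the test called 39.4% of genes changed 2-fold and 90% of genes changed 4-fold. Unchanged genes made up 4.44% of its calls. Named genes were all members, the 4 of smallest p in each of the 7 lists of factors, regulators and targets, and up to 3 called against its median. MLX, CIDEA, EHMT1, EBF3, ANGPTL4, DGAT1 and the cell type markers named were added after their values were seen, as were the heifer term, the ratios, both scales set on adipocyte markers and the Schwann cell sum without S100B. Members and lists were chosen with earlier results of these data known, so no list was tested.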

Additional observations from a re-analysis of the deposited data

Results flagged for a closer look

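In each depot the 5 values of each member on the log2 CPM scale were searched for a library far from the rest, as the gap to its nearest neighbour over the whole range (20 groups, of which chance flags about 1). PPARG in intramuscular library 1 was low, with a gap of 0.727 of the range against a critical value of 0.71. That library also had the lowest adipocyte marker sum and the highest striated muscle share. CEBPD in subcutaneous library 5 was high, with a gap of 0.867 of the range, at 771 CPM against 342 to 381 CPM in the other 4.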

How the results depend on the processing

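PRDM16 kept its direction and its call in all 17 alternatives (log2 fold change 2.97 to 3.67, highest adjusted p 0.00897). The members called higher were 1 in the main test, 2 by DESeq2 and 1 to 3 with a library left out. Those called lower were 0, then 1 by DESeq2, 1 with the replicate block and 0 to 1 with a library left out. The block changed no member's call but that of MLXIPL. PPARG, EBF2, MLXIPL and ZNF423 passed in 2, 2, 1 and 1 of the 17 alternatives and kept their direction in all. The log2 fold change of CEBPD turned to 0.00419 without intramuscular libraries 1 and 3, and that of KLF15 ranged from -0.0527 to 0.175 with a library left out. Over all genes, 845 were higher and 688 lower. These counts were 1369 and 1171 by DESeq2, 306 and 67 without intramuscular libraries 1 and 3, 380 and 164 without heifers 1 and 3 in the paired fit, and 494 to 1008 and 263 to 887 with a library left out. PRDM16 had 6 counts in its lowest library, which limits the precision of its fold change. Of the 28 genes that the naming rule took from the other lists none turned its direction. Their calls were lost in 92 and gained in 15 of 476 comparisons of a gene with an alternative. Counts called in the other lists moved by over 1.5 times in 94 of 238 comparisons.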

Other observations

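Within a library, the ratio of PRDM16 to PPARG CPM was 0.284, 0.0811, 0.0828, 0.0509 and 0.0767 in intramuscular libraries 1 to 5. In the subcutaneous libraries it was 0.00861, 0.00853, 0.00511, 0.00391 and 0.00142. The depots did not overlap, and intramuscular library 1 was the highest.

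The ratio of CEBPD to CEBPB was 1.58 ± 0.737 in intramuscular and 1.505 ± 0.422 in subcutaneous fat (SD, n = 5). In intramuscular libraries 1 to 5 it ranged widely, at 0.833, 1.417, 1.13, 2.74 and 1.76. The ratio of MLXIPL to SREBF1 was 0.317 ± 0.0794 and 0.439 ± 0.101 (SD, n = 5), with overlapping depots.

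Markers of other cell types stood beside these values. The summed CPM of 13 endothelial markers was 2067 to 2632 in intramuscular and 2576 to 4646 in subcutaneous libraries. For 7 mural cell markers it was 2099 to 2676 and 1702 to 2515, for 10 Schwann cell markers 520 to 919 and 695 to 1509, and for 13 macrophage markers 198 to 416 and 205 to 1034. No gene of these 4 lists was at 0 in a whole depot. The Schwann cell sum was carried by S100B (149 to 464 and 512 to 1396 CPM), and the other 9 genes summed to 235 to 455 in intramuscular and 113 to 194 in subcutaneous libraries. MCAM, the largest part of the mural cell sum, measured 1105 ± 181 against 1323 ± 233 CPM (SD, n = 5). By edgeR 3 of the 7 mural cell genes were called higher (0 lower), RGS5, CSPG4 and ABCC9. RGS5 measured 426 ± 147 against 52.1 ± 14.0 CPM, without overlap (edgeR adjusted p = 5.74e-05). By log2 fold change 4 of the 7 lay higher and 3 lower. Of the 10 Schwann cell genes 6 were called higher and 1, S100B, lower. Of the endothelial and of the macrophage list 0 were called higher and 4 of 13 lower each. Beside these counts, 6.75% of all genes tested were called higher and 5.49% lower. The part of any of these cell types in the PRDM16 and EBF2 levels was not tested.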
